A study of Mus musculus with 4 samples.

Results

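The amino acid transporter families examined here are the solute carrier families SLC1, SLC3, SLC6, SLC7, SLC36, SLC38 and SLC43, whose members move amino acids, and in SLC6 also neurotransmitters, taurine and creatine, across cell membranes. They were taken by symbol from an RNA-seq table of 24421 genes. The rule, which leaves out 1 further SLC7 gene, matched 63 rows, of which 60 are transporter genes and 3 are genes named for lying on the opposite strand of one. The RNA came from 4T07 cells, which are mouse mammary carcinoma cells of strain Balb/cfC3H. Of the 4 libraries of polyadenylated RNA, 2 were labelled as Six2 overexpression and 2 as control (CTL), and each group has a replicate 1 and a replicate 2. All cells were grown in high-glucose DMEM that held L-glutamine, non-essential amino acids and 10% calf serum, and were harvested 48 hours after plating. Separate cultures are not mentioned for the replicates, nor whether a line was a clone or a pool, nor what drove Six2. The p-values therefore measure only how far these libraries spread, and that spread may be technical.

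Values are RPKM, reads scaled to the length of the gene and to the read total of the library, so levels of different genes can be set beside each other. The read totals recovered from the values were 49910629 and 81524250 in Six2 replicates 1 and 2, and 43110985 and 41881864 in CTL replicates 1 and 2. A gene listed at 0 had 0 reads, but its expected count may be up to 3 reads. For a gene of 1 kb that is 0.0368 to 0.0716 RPKM over the 4 libraries, counting error only. Six2 itself was listed at 0.0285 RPKM in Six2 replicate 1 and at 0 in Six2 replicate 2 and both CTL libraries. The values thus do not show the overexpression named in the labels, and every direction below is that of the libraries labelled Six2. Krt8 and Krt18, keratins of simple epithelium, stood between 389 and 1059 RPKM in all libraries. Cdh1, which encodes E-cadherin, was at 0.186 and 0.103 RPKM in the libraries labelled Six2, against 14.6 and 8.40 RPKM in the CTL libraries. It did not pass between the groups (limma-trend adjusted p = 0.0592). Krt19, another keratin gene, did not pass either (limma-trend adjusted p = 0.119). It was at 0.802 and 0.464 RPKM in the libraries labelled Six2, against 8.76 and 4.26 RPKM in the CTL libraries. Of the 12 epithelial markers 6 were tested and 1 passed, the keratin gene Krt7 (limma-trend adjusted p = 0.0397). It was at 0.467 and 0.634 RPKM in the libraries labelled Six2, against 10.8 and 8.67 RPKM in the CTL libraries. Krt7, Cdh1 and Krt19 met the filter, 1 RPKM or more in at least 2 libraries, only through the CTL libraries, where they are high. With no filter on low values 0 of all genes were called between the groups (limma-trend). Elf3, an epithelial transcription factor gene, lay the other way, at 4.62 and 3.78 RPKM in the libraries labelled Six2, against 2.19 and 2.18 RPKM in the CTL libraries (limma-trend adjusted p = 0.145). Of 12 markers each, 9 of leukocytes, 6 of fibroblasts, 8 of endothelium and 9 of neurons stayed under 0.1 RPKM in every library. The leukocyte genes Adgre1 and Tyrobp, the fibroblast genes Col3a1, Lum and Thy1, the endothelial gene Kdr and the neuronal gene Dcx were listed at 0 throughout. Some list genes were present in every library, among them Pdgfra of the fibroblast list at 4.78 to 8.85 RPKM, Flt1 and Egfl7 of the endothelial list at 3.97 to 6.22 and 6.30 to 8.29 RPKM, and Map2 of the neuronal list at 5.06 to 6.46 RPKM. The summed level of the leukocyte markers was 5.32 to 10.4 RPKM in the libraries labelled Six2 and 7.76 to 13.03 RPKM in the CTL libraries, most of it Cd68. In the libraries labelled Six2 the sums were 5.21 to 7.51 RPKM for fibroblast, 14.9 to 15.8 RPKM for endothelial and 5.78 to 6.44 RPKM for neuronal markers. In the CTL libraries they were 5.40 to 10.4 RPKM for fibroblast, 12.8 to 14.4 RPKM for endothelial and 6.88 to 7.09 RPKM for neuronal markers.

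Amino acids enter cells through carriers that exchange one amino acid for another, through carriers driven by sodium or proton gradients, and through facilitative carriers. The light chains of the SLC7 family reach the surface only when joined to a heavy chain of the SLC3 family, chiefly the product of Slc3a2. Several of these genes, among them Slc7a5, Slc3a2 and Slc38a2, are known to be raised by the transcription factor ATF4 when amino acids run short, and some members act at the lysosome, where amino acid supply is reported to the growth-control kinase complex mTORC1. Tumour cells are known for a high uptake of glutamine and leucine through such carriers.

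The ATF4 binding element is shown first because it is a sequence through which several of these genes are known to be raised. Its core was searched as TGATGNAA, with N any base, on both strands of RefSeq promoter windows (GRCm38.p6, 250 bases before to 50 bases after the start). Of the 18 transporter genes tested below, 12 had such a window. The core was held by 2 of these 12, a share of 16.7%, against 4.51% of all 27025 genes with a window. A gene can have more than 1 window. Counted by window, 3 of 21 held the core, 14.3%, against 3.97% of all 32851. The shares were not tested, and neither gene is Slc7a5, Slc3a2 or Slc38a2, named above. Some tested genes had no window and only the windows were searched, so this does not show that those named genes lack the core. The windows of Slc1a4 (chr11:20332664-20332963, minus strand) and Slc7a7 (chr14:54417895-54418194, minus strand, the most upstream of its listed starts) are printed 5′ to 3′, with the matched letters in capitals.
Slc1a4: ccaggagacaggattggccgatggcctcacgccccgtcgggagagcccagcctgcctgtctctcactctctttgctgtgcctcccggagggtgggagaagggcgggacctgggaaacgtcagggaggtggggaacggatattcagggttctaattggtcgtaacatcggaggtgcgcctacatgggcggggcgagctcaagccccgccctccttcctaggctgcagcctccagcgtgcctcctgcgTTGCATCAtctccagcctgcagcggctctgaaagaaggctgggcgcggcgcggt
Slc7a7: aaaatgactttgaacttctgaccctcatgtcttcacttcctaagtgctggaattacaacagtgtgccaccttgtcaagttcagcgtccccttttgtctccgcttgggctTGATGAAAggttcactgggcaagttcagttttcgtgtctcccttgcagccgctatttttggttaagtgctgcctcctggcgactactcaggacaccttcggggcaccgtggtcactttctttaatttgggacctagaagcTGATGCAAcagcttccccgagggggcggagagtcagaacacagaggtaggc
The match in Slc1a4 begins at base -4 from the start, and the matches in Slc7a7 begin at bases -141 and -1. These are matches of letters and not mapped binding sites.

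Most members were at or near 0 in 4T07 cells. Of the 60 transporter genes, 16 were listed at 0 in all libraries and 19 more stayed under 0.1 RPKM in every library. Among them were the carriers of GABA (Slc6a11, Slc6a13), dopamine (Slc6a3), serotonin (Slc6a4) and proline (Slc6a7), the glial glutamate carriers Slc1a2 and Slc1a3, the renal and intestinal carriers Slc6a18, Slc6a19 and Slc7a9, and the large neutral carriers Slc7a8 and Slc43a1. A further 7 reached 0.1 RPKM but lay below the filter of the test, 1 RPKM or more in at least 2 libraries. The 18 tested genes were thus chosen by their level. All of them but Slc38a3 were above 1 RPKM in every library, and Slc38a3 met the filter only through the libraries numbered 1.

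Transcripts of a few carriers made up most of the family. Summed over the 60 genes, the level was 469 and 465 RPKM in the libraries labelled Six2, against 496 and 473 RPKM in the CTL libraries. Slc38a2 alone, a sodium-coupled carrier of small neutral amino acids, held 23.9% and 23.8% of that sum in the libraries labelled Six2, against 19.1% and 22.0% in the CTL libraries. The 8 most abundant genes, Slc38a2, Slc6a6, Slc38a10, Slc3a2, Slc1a5, Slc6a9, Slc7a5 and Slc6a8, held 80.9% to 82.1% in the 4 libraries. In the order of mean levels Slc38a2 stood clear of all others, its lowest library at 94.7 RPKM and the highest library of the next gene, Slc6a6, at 66.7 RPKM. From Slc6a6 down to Slc7a6 the range over the libraries of each gene overlapped that of the next, so this order does not exceed the spread. Slc1a4 lay apart on both sides, between 8.74 and 11.3 RPKM, and 6 tested genes lay below it.

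**Figure D1:**
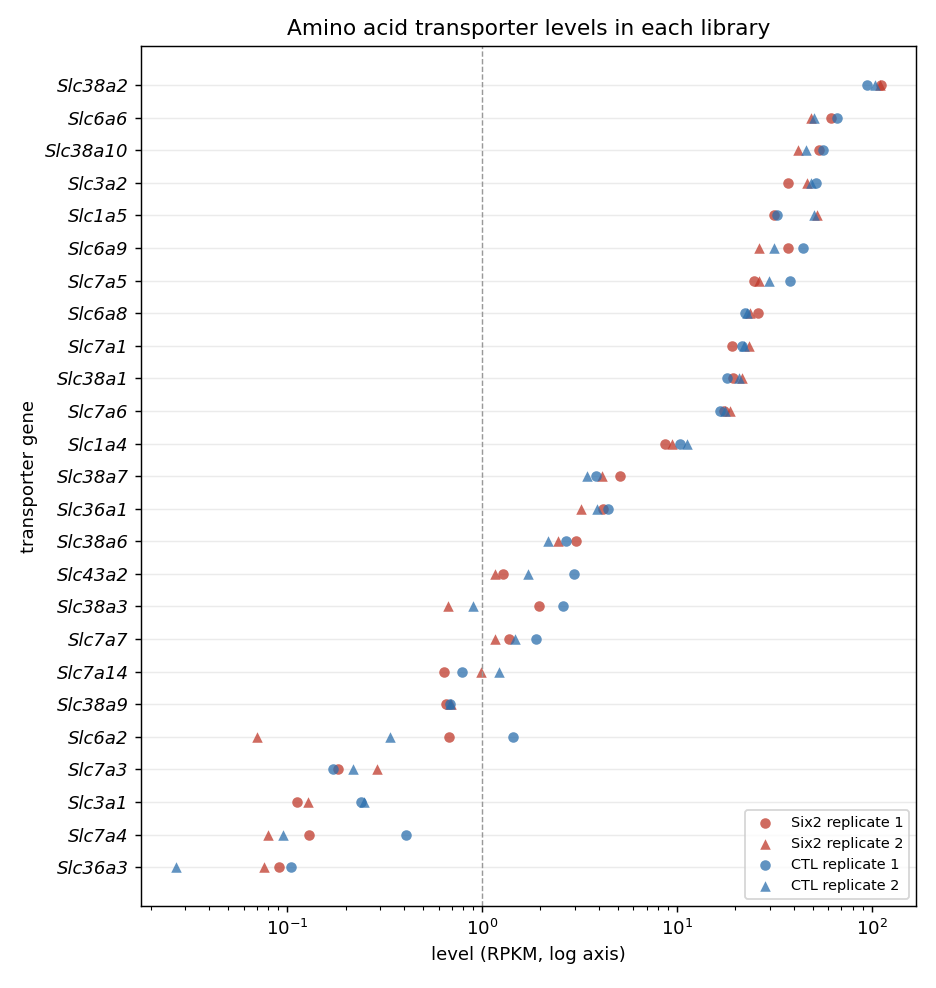
Level of the 25 transporter genes that reached 0.1 RPKM in any library, on a log axis in RPKM, ordered by mean level; each point is 1 library (red, labelled Six2; blue, CTL; circles, replicate 1; triangles, replicate 2) and the dashed line marks 1 RPKM. Slc38a2 stands clear at the top, and Slc1a5 and Slc6a9 separate by symbol, that is by replicate number, more than by colour.

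The comparison of the libraries labelled Six2 with the CTL libraries asked which transcripts differ with the Six2 label. No transporter gene passed it in the fit with group as its only term. Of the 18 tested, 0 had an adjusted p under 0.05 (limma-trend, Benjamini-Hochberg over 10654 genes, of which 0.113% were called) and 0 had an unadjusted p under 0.05, where 17% of all genes tested did. In 8 of the 18 the libraries of the groups did not overlap, 3 higher and 5 lower in the libraries labelled Six2, a share of 44.4% against 47.4% of all genes tested. By direction 16.7% were higher, against 21.9% of all genes, and 27.8% lower, against 25.5%. The median log2 difference of the 18 was -0.09, against -0.01 for all genes tested. A p above the threshold does not show equal levels, and the 95% intervals below give the range that this fit leaves. The replicate number is not a term of it, so a shift shared by same-numbered libraries counts as spread. Calls with that number as a term are given at the end, under the dependence on the processing.

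The members with the smallest p-values were carriers of large neutral amino acids. Slc43a2, a facilitative carrier of leucine, phenylalanine and methionine (GRCm38 chromosome 11, 75531694 to 75577575), was at 1.28 and 1.16 RPKM in the libraries labelled Six2, against 2.99 and 1.72 RPKM in the CTL libraries. Both libraries labelled Six2 lay below both CTL libraries, and CTL replicate 1 was the highest. The log2(RPKM + 1) difference was -0.57 (SE 0.222, 95% interval -1.16 to 0.03, limma-trend adjusted p = 0.312). That scale understates the change of low genes, and the ratio of mean RPKM was 0.519. Slc7a5, the light chain of the leucine exchanger LAT1 (chromosome 8, 121881150 to 121907694), was at 24.8 and 26.6 RPKM in the libraries labelled Six2, against 38.04 and 29.8 RPKM in the CTL libraries. The groups did not overlap, but the CTL libraries differed from each other by more than CTL replicate 2 differed from either library labelled Six2. Its log2 difference was -0.38 (SE 0.15, 95% interval -0.78 to 0.02, limma-trend adjusted p = 0.315).

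Slc3a2, the heavy chain that Slc7a5 joins (chromosome 19, 8706882 to 8723369), was at 37.3 and 46.5 RPKM in the libraries labelled Six2, against 52.0 and 48.9 RPKM in the CTL libraries. Here too the groups did not overlap, and Six2 replicate 1 was the lowest. The log2 difference was -0.27 (SE 0.14, 95% interval -0.65 to 0.11, limma-trend adjusted p = 0.417). The other tested light chains were Slc7a7 and Slc7a6. Slc7a7, a light chain that carries arginine, lysine and leucine, was at 1.38 and 1.17 RPKM in the libraries labelled Six2, with 1.89 and 1.48 RPKM in the CTL libraries. Slc7a6, its close relative, was at 17.4 and 18.8 RPKM in the libraries labelled Six2, with 16.6 and 17.7 RPKM in the CTL libraries. For Slc7a7 the groups did not overlap (log2 difference -0.23, 95% interval -0.63 to 0.16), and for Slc7a6 they did (0.07, -0.21 to 0.35). Neither passed, and the difference between them was not tested.

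The level of the heavy chain lay at or below the sum of the 3 tested light chains in each library. The SLC7 gene left out by the rule is not in that sum, which may therefore not cover all partners of Slc3a2. Slc7a5, Slc7a6 and Slc7a7 together stood at 43.6 and 46.5 RPKM in the libraries labelled Six2, against 56.5 and 49.0 RPKM in the CTL libraries. Slc3a2 divided by that sum was 0.856 and 1.00 in the libraries labelled Six2, against 0.919 and 0.999 in the CTL libraries, so both replicate 1 libraries were the lower ones. Slc7a5 made up 56.9% and 57.1% of the light chain sum in the libraries labelled Six2, against 67.3% and 60.8% in the CTL libraries. Slc7a6 made up 39.9% and 40.4% of it in the libraries labelled Six2, against 29.4% and 36.2% in the CTL libraries. The groups did not overlap in either share, which is given as a description of these libraries with no test. Slc3a1, the heavy chain used in kidney and gut with Slc7a9, was at 0.113 and 0.128 RPKM in the libraries labelled Six2, with 0.242 and 0.249 RPKM in the CTL libraries, while Slc7a9 stayed at or below 0.00618 RPKM.

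**Figure D2:**
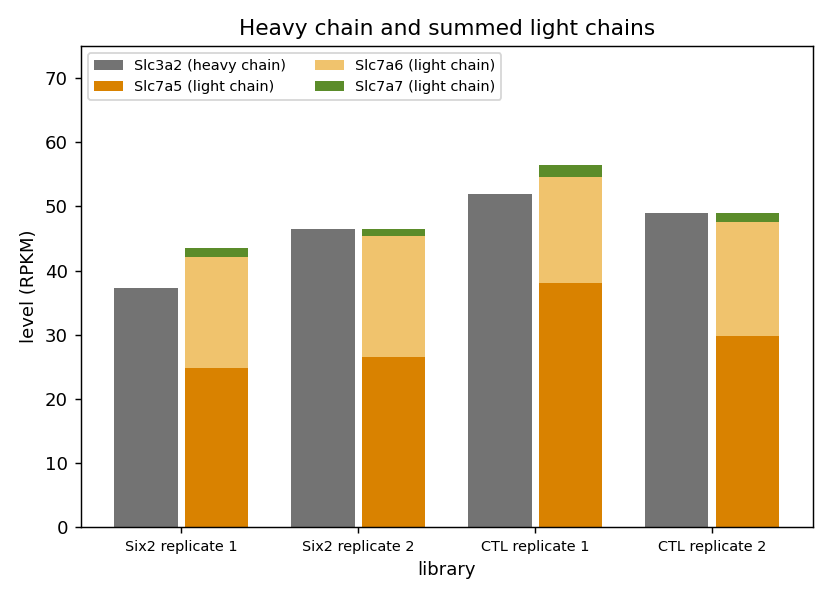
Level in RPKM of the heavy chain gene Slc3a2 (grey) beside the stacked levels of the light chain genes Slc7a5, Slc7a6 and Slc7a7 in each of the 4 libraries, with 1 library per pair of bars. The summed light chains run from 43.6 RPKM in Six2 replicate 1 to 56.5 RPKM in CTL replicate 1, and Slc7a5 is the largest part in every library.

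Among the SLC1 carriers, Slc1a4, an exchanger of alanine, serine and cysteine, was at 8.74 and 9.49 RPKM in the libraries labelled Six2, against 10.3 and 11.3 RPKM in the CTL libraries. The groups did not overlap, and the log2 difference was -0.23 (SE 0.11, 95% interval -0.52 to 0.07, limma-trend adjusted p = 0.389). Slc1a5, the glutamine exchanger ASCT2, averaged 41.9 ± 14.5 RPKM in the libraries labelled Six2 and 41.5 ± 12.7 RPKM in the CTL libraries (SD, n = 2 each). Its log2 difference was 0.0005, but the interval ran from -0.88 to 0.89, because the replicates of each group stood far apart.

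Of the sodium-coupled SLC38 carriers, Slc38a2 was at 112 and 110.5 RPKM in the libraries labelled Six2, against 94.7 and 104 RPKM in the CTL libraries. The groups did not overlap, and the log2 difference was 0.16 (SE 0.096, 95% interval -0.10 to 0.42, limma-trend adjusted p = 0.47). Slc38a7, a lysosomal exporter of glutamine and asparagine, was at 5.09 and 4.12 RPKM in the libraries labelled Six2, against 3.87 and 3.46 RPKM in the CTL libraries. Again the groups did not overlap (log2 difference 0.26, 95% interval -0.12 to 0.64, limma-trend adjusted p = 0.436). Slc38a1, a glutamine carrier related to Slc38a2, averaged 20.5 ± 1.60 RPKM in the libraries labelled Six2 and 19.5 ± 2.03 RPKM in the CTL libraries. Slc38a6 averaged 2.76 ± 0.421 RPKM in the libraries labelled Six2, against 2.44 ± 0.366 RPKM in the CTL libraries. Slc38a10 averaged 47.8 ± 8.60 RPKM in the libraries labelled Six2, against 51.3 ± 7.26 RPKM in the CTL libraries. Slc38a3, a glutamine carrier best known from liver, averaged 1.31 ± 0.908 RPKM in the libraries labelled Six2 and 1.76 ± 1.21 RPKM in the CTL libraries. In these last 4 genes the libraries of the groups overlapped. Slc38a9, the lysosomal arginine sensor of mTORC1, lay below the filter and between 0.656 and 0.698 RPKM in all 4 libraries.

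The tested SLC6 carriers were those of taurine, creatine and glycine. Slc6a8, the creatine carrier, was at 26.3 and 23.6 RPKM in the libraries labelled Six2, against 22.3 and 22.8 RPKM in the CTL libraries, without overlap (log2 difference 0.14, 95% interval -0.14 to 0.41). Slc6a6, the taurine carrier, averaged 55.4 ± 9.32 RPKM in the libraries labelled Six2 and 58.6 ± 11.5 RPKM in the CTL libraries. Slc6a9, the glycine carrier GlyT1, averaged 31.9 ± 7.70 RPKM in the libraries labelled Six2 and 37.9 ± 8.999 RPKM in the CTL libraries. For both the groups overlapped. Slc7a1, the main carrier of arginine and lysine, averaged 21.4 ± 3.15 RPKM in the libraries labelled Six2 and 21.9 ± 0.350 RPKM in the CTL libraries. Slc36a1, a proton-coupled exporter of small amino acids from lysosomes, averaged 3.71 ± 0.648 RPKM in the libraries labelled Six2 and 4.18 ± 0.378 RPKM in the CTL libraries. The groups overlapped for both of these too, with 95% intervals of -0.40 to 0.31 for Slc7a1 and -0.55 to 0.26 for Slc36a1.

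**Figure D3:**
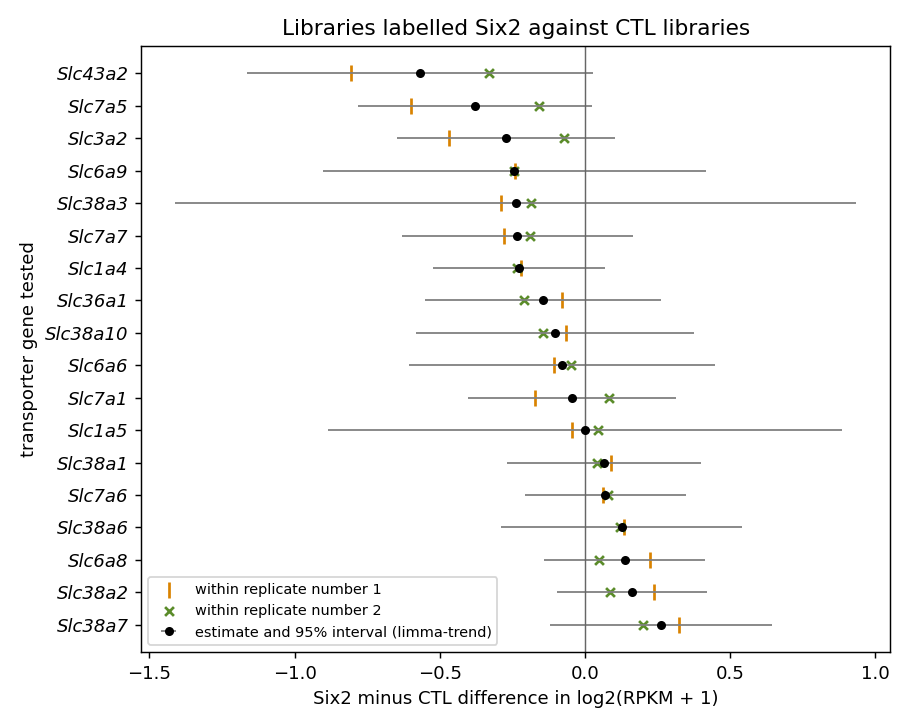
Difference in log2(RPKM + 1), libraries labelled Six2 minus CTL libraries, for the 18 transporter genes tested; black points and bars are the limma-trend estimate and its 95% interval, orange bars and green crosses the difference within replicate number 1 and within replicate number 2. Every interval of this fit, which has group as its only term, spans 0. Slc43a2 (-0.57), Slc7a5 (-0.38) and Slc3a2 (-0.27) lie farthest from 0 among the genes whose groups did not overlap.

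The comparison of the libraries numbered 2 with those numbered 1 asked what the libraries of one group differed in. Here 6 of the 18 transporter genes passed in a fit with group as a term, 2 higher and 4 lower in the libraries numbered 2. That is 33.3% of the members, against a background of 44.8% of all 10654 genes called, so the count is not a result about the transporters. By direction 11.1% of the members were called higher, against 20.7% of all genes, and 22.2% lower, against 24.1%. The fit leaves 1 residual degree of freedom per gene and borrows the rest of its variance estimate from all genes. Without the group term, 0 transporter genes and 0 of all genes were called (limma-trend, smallest adjusted p over all genes 0.214), while 5 members and 1765 of all genes had an unadjusted p under 0.05. With the group term 10 of the 18 had an unadjusted p under 0.05, against 53.4% of all genes. The libraries of the replicate numbers did not overlap in 10 of the 18, 4 higher and 6 lower, a share of 55.6% against 48.2% of all genes. The labels do not say what the numbers stand for. The summed epithelial markers moved with them, at 1002 and 1241 RPKM in Six2 and CTL replicate 2, against 1670 and 1899 RPKM in Six2 and CTL replicate 1. Nearly all of that sum is Krt8 and Krt18. Of the 6 epithelial markers tested, 4 were called lower in the libraries numbered 2, 66.7% against 24.1% of all genes. They were Krt8 (log2 difference -0.595), Krt18 (-0.791), Krt19 (-0.596) and Cdh1 (-0.417). Krt7 and Elf3 did not pass between the replicate numbers (log2 differences -0.07 and -0.12). The markers' part in the results was not tested.

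Slc1a5 (chromosome 7, 16781340 to 16798274) was the member with the smallest p. It stood at 52.1 RPKM in Six2 replicate 2 and 50.5 RPKM in CTL replicate 2, against 31.6 RPKM in Six2 replicate 1 and 32.6 RPKM in CTL replicate 1. Both libraries numbered 2 were higher, and the ratio was 1.65 in the libraries labelled Six2 and 1.55 in the CTL libraries. The log2 difference was 0.66 (SE 0.0522, limma-trend adjusted p = 0.000214). Slc38a1 (chromosome 15, 96571418 to 96642913) rose less, to 21.6 and 20.98 RPKM in Six2 and CTL replicate 2, against 19.3 and 18.1 RPKM in Six2 and CTL replicate 1 (log2 difference 0.18, SE 0.0542, limma-trend adjusted p = 0.0326). Its call ended with no filter on low values (limma-trend adjusted p = 0.0753). Their relatives Slc38a2 and Slc1a4 differed by 0.06 and 0.11 and did not pass.

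The lower members were led by Slc6a9 (chromosome 4, 117834506 to 117875198). It stood at 26.5 RPKM in Six2 replicate 2 and 31.5 RPKM in CTL replicate 2, against 37.3 RPKM in Six2 replicate 1 and 44.3 RPKM in CTL replicate 1. The ratio was 0.708 in the libraries labelled Six2 and 0.713 in the CTL libraries (log2 difference -0.48, SE 0.0501, limma-trend adjusted p = 0.000534). Slc38a3 (chromosome 9, 107650634 to 107669530) entered the test only through the libraries numbered 1, where it is high. It fell to 0.670 and 0.902 RPKM in Six2 and CTL replicate 2, against 1.96 and 2.61 RPKM in Six2 and CTL replicate 1, ratios of 0.343 and 0.345 (log2 difference -0.87, SE 0.0977, limma-trend adjusted p = 0.000682, and 0.0281 with no filter on low values). Slc6a6 (chromosome 6, 91684053 to 91759066) fell to 48.8 and 50.5 RPKM in Six2 and CTL replicate 2, against 62.0 and 66.7 RPKM in Six2 and CTL replicate 1 (log2 difference -0.37, limma-trend adjusted p = 0.00134). Slc38a10 (chromosome 11, 120103960 to 120151346) fell to 41.8 and 46.2 RPKM in Six2 and CTL replicate 2, against 53.9 and 56.5 RPKM in Six2 and CTL replicate 1 (log2 difference -0.32, limma-trend adjusted p = 0.00245). In all 4 genes each library numbered 2 lay below each library numbered 1.

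The remaining 12 did not pass. Slc36a1 and Slc38a6 differed by -0.22 each (limma-trend adjusted p = 0.0606 and 0.0638), and for both the replicate numbers did not overlap. Slc7a1 and Slc7a6 differed by 0.16 and 0.10, also without overlap. Slc43a2 differed by -0.31 and Slc38a7 by -0.19, Slc7a7 by -0.18, Slc7a5 by -0.12, Slc6a8 by -0.06 and Slc3a2 by 0.11, all with overlapping libraries. Of the opposite-strand genes 1 of 3 was tested. Slc7a6os, a neighbour of Slc7a6 that is not a transporter, was at 16.9 and 17.4 RPKM in Six2 and CTL replicate 2, against 15.5 and 14.5 RPKM in Six2 and CTL replicate 1 (log2 difference 0.18, limma-trend adjusted p = 0.0464, and 0.122 with no filter on low values). Slc36a1os and Slc6a19os stayed under 0.1 RPKM.

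**Figure D4:**
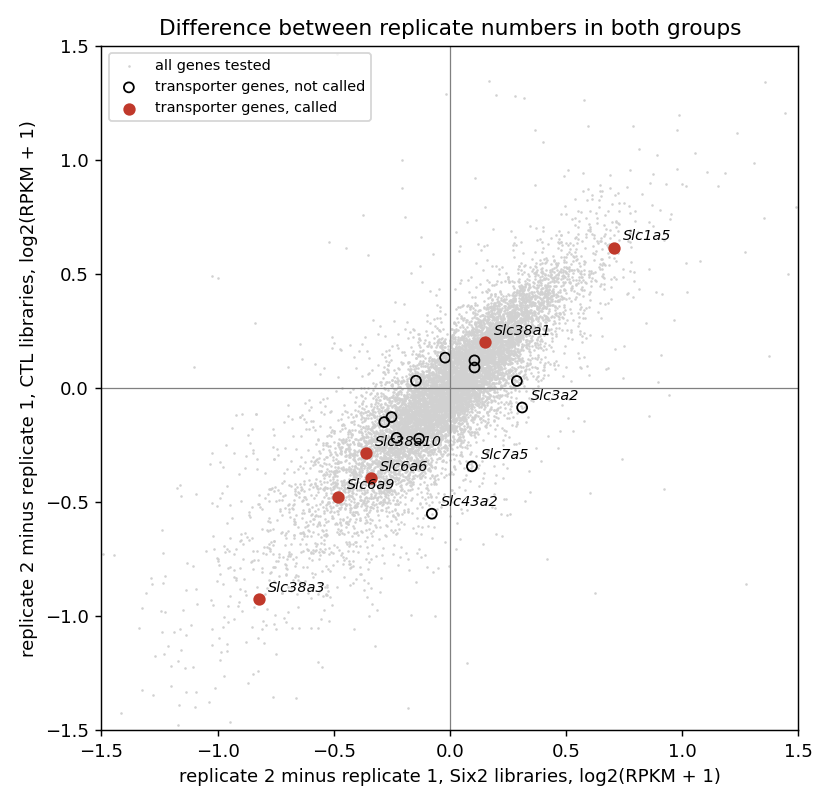
Difference in log2(RPKM + 1) of replicate 2 minus replicate 1 within the libraries labelled Six2 (horizontal axis) and within the CTL libraries (vertical axis); grey points are the genes tested, of which 37 lie outside the axes, red points the 6 transporter genes called with group as a term, and open circles the other 12. Slc1a5 lies at the upper right and Slc38a3 at the lower left, while Slc3a2 and Slc7a5 lie in the quadrant where the groups differ in sign.

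Some members below the filter also varied by library and are given as values with no test. Slc6a2, the noradrenaline carrier, was at 0.676 and 0.0707 RPKM in Six2 replicates 1 and 2 and 1.44 and 0.338 RPKM in CTL replicates 1 and 2, so that within each group replicate 2 was the lower. Slc7a4 was at 0.130 and 0.0797 RPKM in Six2 replicates 1 and 2 and 0.409 and 0.0961 RPKM in CTL replicates 1 and 2, with CTL replicate 1 above the rest. Slc7a14 was at 0.644 and 0.994 RPKM in the libraries labelled Six2, with 0.790 and 1.23 RPKM in the CTL libraries. Slc7a3, a carrier of cationic amino acids, lay between 0.173 and 0.289 RPKM over the 4 libraries, and Slc36a3 between 0.0272 and 0.106 RPKM.

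The genes around these carriers were described from 3 lists. Of 30 genes of the amino acid response, in which the kinase GCN2 senses uncharged tRNA and ATF4 raises its targets, 27 were tested. Between the libraries labelled Six2 and the CTL libraries 0 passed (limma-trend), 8 had an unadjusted p under 0.05, where 17% of all genes tested did, and the median log2 difference was -0.07. Atf4 itself was at 194 and 192 RPKM in the libraries labelled Six2, with 179.5 and 183 RPKM in the CTL libraries. Phgdh, the first enzyme of serine synthesis, was at 205 and 218 RPKM in the libraries labelled Six2, against 164 and 182 RPKM in the CTL libraries. The largest differences in the list were those of Pycr1, an enzyme of proline synthesis, at 1.13 and 0.838 RPKM in the libraries labelled Six2 against 3.33 and 1.88 RPKM in the CTL libraries (log2 difference -0.84), and of the stress kinase gene Eif2ak3 (-0.57).

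Between the replicate numbers, with group as a term, 3 of the 27 response genes were higher and 10 lower, 48.1% of them against the background of 44.8%. The higher ones were Asns, which encodes asparagine synthetase (log2 difference 0.33), and the mitochondrial one-carbon enzyme genes Shmt2 (0.38) and Mthfd2 (0.32). The lower ones were Atf3 (-1.32), Nupr1 (-1.08), Ddit4 (-1.06), Cebpb (-0.53), Trib3 (-0.45), Pycr1 (-0.40), Eif2ak3 (-0.33), Eif2ak2 (-0.33), Chac1 (-0.30) and Ppp1r15a (-0.28). Ddit4, an inhibitor of mTORC1, was at 23.0 and 26.8 RPKM in Six2 and CTL replicate 2, against 57.7 and 48.5 RPKM in Six2 and CTL replicate 1. Atf4 differed by 0.006.

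Of 40 symbols listed for amino acid sensing at the lysosome, 37 were in the data and 35 were tested. Between the libraries labelled Six2 and the CTL libraries 0 passed (limma-trend, 6 at an unadjusted p under 0.05, against 17% of all genes tested) and the median log2 difference was -0.01. The abundant Sec13 and Lamtor1 differed by -0.03 and 0.008, and the largest differences were -0.64 for Gatsl2 and 0.46 for Lamtor3, a subunit of the lysosomal scaffold of the Rag GTPases. Between the replicate numbers 1 was higher, Seh1l (0.23), and 8 were lower, 25.7% of the 35 against 44.8%. The lower ones were Sesn3 (-1.11), Sesn1 (-1.02), Lamtor4 (-0.55), Fnip1 (-0.42), Tbc1d7 (-0.26), Tfeb (-0.25), Lamtor2 (-0.19) and Rragc (-0.18). Sesn1, a sestrin that restrains mTORC1, was at 3.31 and 4.00 RPKM in Six2 and CTL replicate 2, against 9.08 and 7.86 RPKM in Six2 and CTL replicate 1.

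Of 18 symbols listed for other amino acid and peptide transport genes outside these families, 17 were in the data and 10 were tested. Between the libraries labelled Six2 and the CTL libraries 0 passed (limma-trend, 0 at an unadjusted p under 0.05), with a median log2 difference of -0.05. Slc15a3, a lysosomal carrier of histidine and peptides, was at 36.4 and 23.7 RPKM in the libraries labelled Six2, against 90.7 and 43.2 RPKM in the CTL libraries (log2 difference -1.07, limma-trend adjusted p = 0.314). Slc25a44, a mitochondrial carrier of branched-chain amino acids, was at 17.1 and 13.5 RPKM in the libraries labelled Six2, against 11.6 and 11.7 RPKM in the CTL libraries (0.36). Slc25a13, a mitochondrial aspartate and glutamate carrier, differed by -0.04. Between the replicate numbers Slc25a22 (0.56) and Slc25a15 (0.29) were higher and Slc15a3 (-0.83) and the lysosomal cystine exporter gene Ctns (-0.75) lower, 40% of the 10 against 44.8%.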

How the data were processed

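Polyadenylated RNA of 4 libraries, grouped by their titles, was sequenced after a TruSeq stranded preparation, per the labels' protocols. The authors deposited RPKM values for 24421 genes. Per the submitters' processing notes the tools included HTSeq 0.8.0 and TopHat2 2.1.1 with Bowtie2, on GRCm38 (mm10). No source used here gives the annotation, gene lengths, strand setting or treatment of shared reads, so close copies and overlapping genes are uncertain. Members and lists were chosen with earlier results of these data known.

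From the steps between values, read totals and whole reads were recovered within 0.001 reads for all 14459 genes above 0 in 3 or more libraries. A factor common to the reads and length of a gene cannot be seen this way, so the reads may be understated. limma 3.58.1 in R 4.3.3 fitted log2(RPKM + 1) with a variance trend. A gene entered if 2 or more libraries reached 1 RPKM, which held for 10654 genes. Tests were two-sided, adjusted after Benjamini and Hochberg, at a threshold of 0.05. The Six2 comparison had group as its term, and the replicate comparison group and replicate number. The fits were tested on simulated reads, with 50 genes changed at each fold. Changed genes were drawn only from those above a floor of mean reads, and the spread of the reads was set by hand. The shares recovered may therefore not hold for these data, nor for members of low level. With a simulated log2 shift between replicate numbers (SD 0.3), the Six2 fit recovered 0% of 1.5-fold, 10% of 2-fold and 98% of 4-fold changes. It made 1 false call there. Without that shift it recovered 92% of 1.5-fold changes, with 30 false calls. The replicate fit recovered 98% of 1.5-fold changes, with 50 false calls, or 57 with a simulated shift between groups. In the replicate fit, and in the Six2 fit without the shift, false calls were a larger share of the calls than the threshold of 0.05. The replicate calls may therefore hold more false ones than that threshold states. Each tested member was named, untested members were named from 0.1 RPKM or as examples, and list genes were named if called, or else by level and difference. Coordinates are those of GENCODE for GRCm38, matched by symbol for all 60 transporter genes. Alternatives were another pseudocount, no filter, relative log expression factors, voom on recovered reads, chromosome medians removed, other terms, and each library left out.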

Additional observations from a re-analysis of the deposited data

Results flagged for a closer look

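In 4 transporter genes the difference of replicate 2 minus replicate 1 had opposite signs in the libraries labelled Six2 and in the CTL libraries. With 1 library per group and number the difference between the groups was not tested. On the log2(RPKM + 1) scale Slc3a2 differed by 0.312 in the libraries labelled Six2 and by -0.0851 in the CTL libraries. Its partner Slc7a5 differed by 0.0955 in the libraries labelled Six2 and by -0.343 in the CTL libraries. Slc6a8 differed by -0.146 in the libraries labelled Six2 and by 0.0324 in the CTL libraries, and Slc38a2 by -0.0200 in the libraries labelled Six2 and by 0.133 in the CTL libraries. In the other 14 tested members both groups had the same sign, as had 82.9% of the 10654 genes tested.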

How the results depend on the processing

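No transporter gene was called between the libraries labelled Six2 and the CTL libraries under any alternative but the replicate block. The numbers are not said to mark a batch, but same-numbered libraries deviated together (r = 0.818 across 10654 genes). With the replicate block, limma-trend called 4639 of all 10654 genes, 2133 higher and 2506 lower. Among them were 7 of the 18 transporter genes, 2 higher (Slc38a2, Slc38a7) and 5 lower (Slc1a4, Slc3a2, Slc43a2, Slc6a9, Slc7a5). It also called 1 higher and 2 lower of the 10 other transport genes tested, 4 and 12 of the 27 response genes and 9 and 7 of the 35 sensing genes. With so many of all genes called, these counts are not read as results about the members or the lists. With no filter the Six2 comparison called 0 higher and 0 lower (limma-trend, 16679 genes tested, 2503 at an unadjusted p under 0.05). On the 10654 filtered genes voom called 14. With chromosome medians removed the sensing median was 0.031, Slc38a6 -0.11, Slc6a6 0.0050, Slc7a1 0.016 and Slc7a6os -0.013. Leaving out each library gave 2 to 18 genes higher and 9 to 50 lower. The largest counts, 18 higher and 50 lower, came without Six2 replicate 2. Across these fits the response median ranged from -0.28 to -0.021, the sensing median from -0.036 to 0.029 and the other transport median from -0.074 to 0.010. Signs turned in Slc7a1 (-0.19 to 0.10), Slc1a5 (-0.35 to 0.35), Slc38a1 (-0.036 to 0.17), Slc38a10 (-0.28 to 0.076), Slc38a3 (-0.70 to 0.22), Slc6a6 (-0.27 to 0.12) and Slc7a6os (-0.095 to 0.15).

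For replicate 2 against replicate 1, no filter gave 1143 genes higher and 1440 lower, with 1 transporter gene higher, 1 other transport gene higher, 6 response genes lower, and 0 sensing genes higher and 5 lower. voom called 11 of the 18 transporter genes, 8 of them lower, and 5299 of all 10654 genes, with 2 sensing genes higher. The sensing median was -0.11 by voom, -0.11 with a pseudocount of 0.1 RPKM and -0.091 with relative log expression factors, and the other transport median was 0.092 with that pseudocount. Without the group term, and with each library left out in that fit, all counts were 0 (limma-trend, 512 to 1765 genes at an unadjusted p under 0.05). Leaving out each library put the other transport median at 0.051 to 0.11 (0.051 and 0.056 without CTL replicates 1 and 2), the response median at -0.14 to -0.049 and the sensing median at -0.081 to -0.035 (-0.057 without Six2 replicate 2 and -0.064 without CTL replicate 2). Signs turned in Slc3a2 (-0.12 to 0.35), Slc6a8 (-0.17 to 0.056), Slc38a2 (-0.063 to 0.18), Slc43a2 (-0.72 to 0.089), Slc7a5 (-0.42 to 0.18) and Slc1a4 (-0.0038 to 0.23). In fits that leave a group or number with 1 library, that library is assumed to vary like the others. With 2 libraries a group, the intervals given are wide.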
